A study of Caenorhabditis elegans with 23 samples.

Results

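Cuticle collagen genes of Caenorhabditis elegans were followed through 23 libraries made by PAT-seq, a sequencing method that reads the 3′ end of an mRNA together with its poly(A) tail. The genes were taken by name: every row called col- followed by a number, plus dpy-7, dpy-13, dpy-17, rol-6, sqt-1, sqt-3, bli-1 and bli-2, as long as the row stood for 1 gene and held at least 50 counts over all libraries. Of 31753 gene rows, 135 carried such a name and 92 passed the minimum. The 43 rows under it held 660 counts in all, and 3 of them held none. Just inside the minimum were col-170 with 50 counts and bli-2 with 54, and just outside were col-64 and col-65 with 47 each. A further 26 collagens, dpy-13 among them, appear in 19 rows that merge several overlapping genes, and these were left out.

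Cuticle collagens are short secreted proteins with a Gly-X-Y repeat that the epidermis makes and secretes at its apical face. They are hydroxylated and folded in the endoplasmic reticulum, trimmed by proteases on the way out, and cross-linked into the exoskeleton of the worm. A new cuticle is made before hatching and at every moult from a set of collagens that differs between stages, and loss of single members gives the dumpy, roller, squat and blister body shapes after which several are named.

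The study asked how poly(A) tails respond to loss of RNA-binding proteins and of enzymes that add or remove tails. Sequencing run 1 held whole young adults of 3 strains with 3 libraries each: the wild type N2, gld-2(q497), which lacks function of the cytoplasmic poly(A) polymerase GLD-2, and YM19 cpb-3(bt17), a mutant of a CPEB-type RNA-binding protein. Sequencing run 2 held young adult gld-2(q497) worms with 2 libraries per treatment, fed bacteria that make double-stranded RNA: pcb19, which has no target, ccf-1 and ccr-4 for the CCR4-NOT deadenylase, caf-1, panl-2 for PAN2-PAN3, and parn-1 for PARN. All RNAi groups therefore share the gld-2 mutation with their control, by the sample labels; the RNAi protocol text speaks of N2 worms. Run 2 also held 2 libraries of early N2 embryos with 1 or 2 cells. The labels do not state that libraries of a group stem from different cultures; the p-values then reflect only how far these libraries differ, which could be technical.

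Libraries held 2200090 to 15952600 counts. The gld-2 gene stood at 11.3 to 12.6 CPM (the usual read counts relative to library size, with sizes adjusted by the TMM method) in N2, at 2.84 to 4.65 in gld-2 and at 2.16 to 6.38 in the RNAi libraries. The cpb-3 gene stood at 51.6 to 57.4 CPM in N2 and at 26.1 to 34.4 in cpb-3, but also at 25.2 to 31.1 in gld-2. Of the RNAi targets only ccf-1 and panl-2 were checked; parn-1, caf-1 and ccr-4 were not analysed here. In the libraries labelled ccf-1 RNAi, ccf-1 stood at 72.1 and 65.6 CPM against 91.3 and 72.96 in the control. In the libraries labelled panl-2 RNAi, panl-2 stood at 140 and 1279 CPM, higher than the 16.6 and 14.6 in the control. What these reads stem from, and whether the mRNA of the worms was lost, was not tested. Replicate 1 of the panl-2 RNAi group stands apart, with 85.1% of its reads tailed where the other 11 RNAi libraries have 53.6 to 72.2%. The library cpb-3 replicate 3 had the highest ribosomal RNA share of run 1, 34.8%, and the fewest counts, 4177620. Its TMM factor was 0.577, where the other run 1 libraries had 0.872 to 1.05, and this scaling raises its CPM values. Its collagens summed to 113590 CPM, against 63382 and 64125 in the other cpb-3 libraries. The embryo libraries carried muscle mRNA: the body muscle myosin unc-54 stood at 251 and 279 CPM, against 667 to 708 in N2 adults, beside the maternal mRNA pos-1 at 689 and 670 CPM.

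The 92 collagen genes made up 6.17 to 6.84% of the counts outside ribosomal RNA in N2, 5.06 to 6.21% in gld-2, 7.63 to 10.1% in cpb-3, 4.23 to 6.93% in the RNAi libraries and 3.05 to 4.03% in embryos. The collagens in merged rows are not in these shares, nor in the rankings below. A handful of genes held most of this. The 3 genes with the most counts, col-181, col-178 and col-140, held 40.5% of the counts of the 92 genes, and the first 15 held 95.04%. In N2 adults 14 genes averaged over 1000 CPM, 19 lay between 10 and 1000, 22 between 1 and 10, and 37 under 1.

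The 10 highest in N2 were col-181 at 7753 ± 1011 CPM (SD, n = 3), col-178 at 5772 ± 412, col-140 at 5290 ± 132, col-124 at 4734 ± 401, col-160 at 3515 ± 175, col-122 at 2463 ± 501, col-93 at 2138 ± 323, col-143 at 1954 ± 37.8, col-20 at 1795 ± 298 and col-119 at 1753 ± 88.6. The lowest N2 value of col-181 lay above the highest of col-178, and col-140 lay likewise above col-124, while the N2 values of col-178 and col-140 overlapped. The adult-specific col-19, whose promoter is a standard marker of the adult epidermis and a target of the transcription factor LIN-29, followed at 1579 ± 290 CPM.

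Genes best known from mutants were far lower. The body-shape collagens sqt-3 and dpy-17, whose proteins are both processed by the protease DPY-31, had 20.6 to 32.1 and 15.6 to 28.9 CPM in N2. The annular furrow collagen dpy-7 had 1.15 to 2.58 CPM. The strut collagens of the adult cuticle, bli-1 and bli-2, averaged 0.512 and 0.108 CPM, and the roller collagens sqt-1 and rol-6 averaged 0.379 and 0.0737, too few to test between adult groups. The genes col-7 and col-62, also described as adult collagens, averaged only 0.302 and 0.498 CPM, with 9 and 15 counts in N2.

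**Figure D1:**
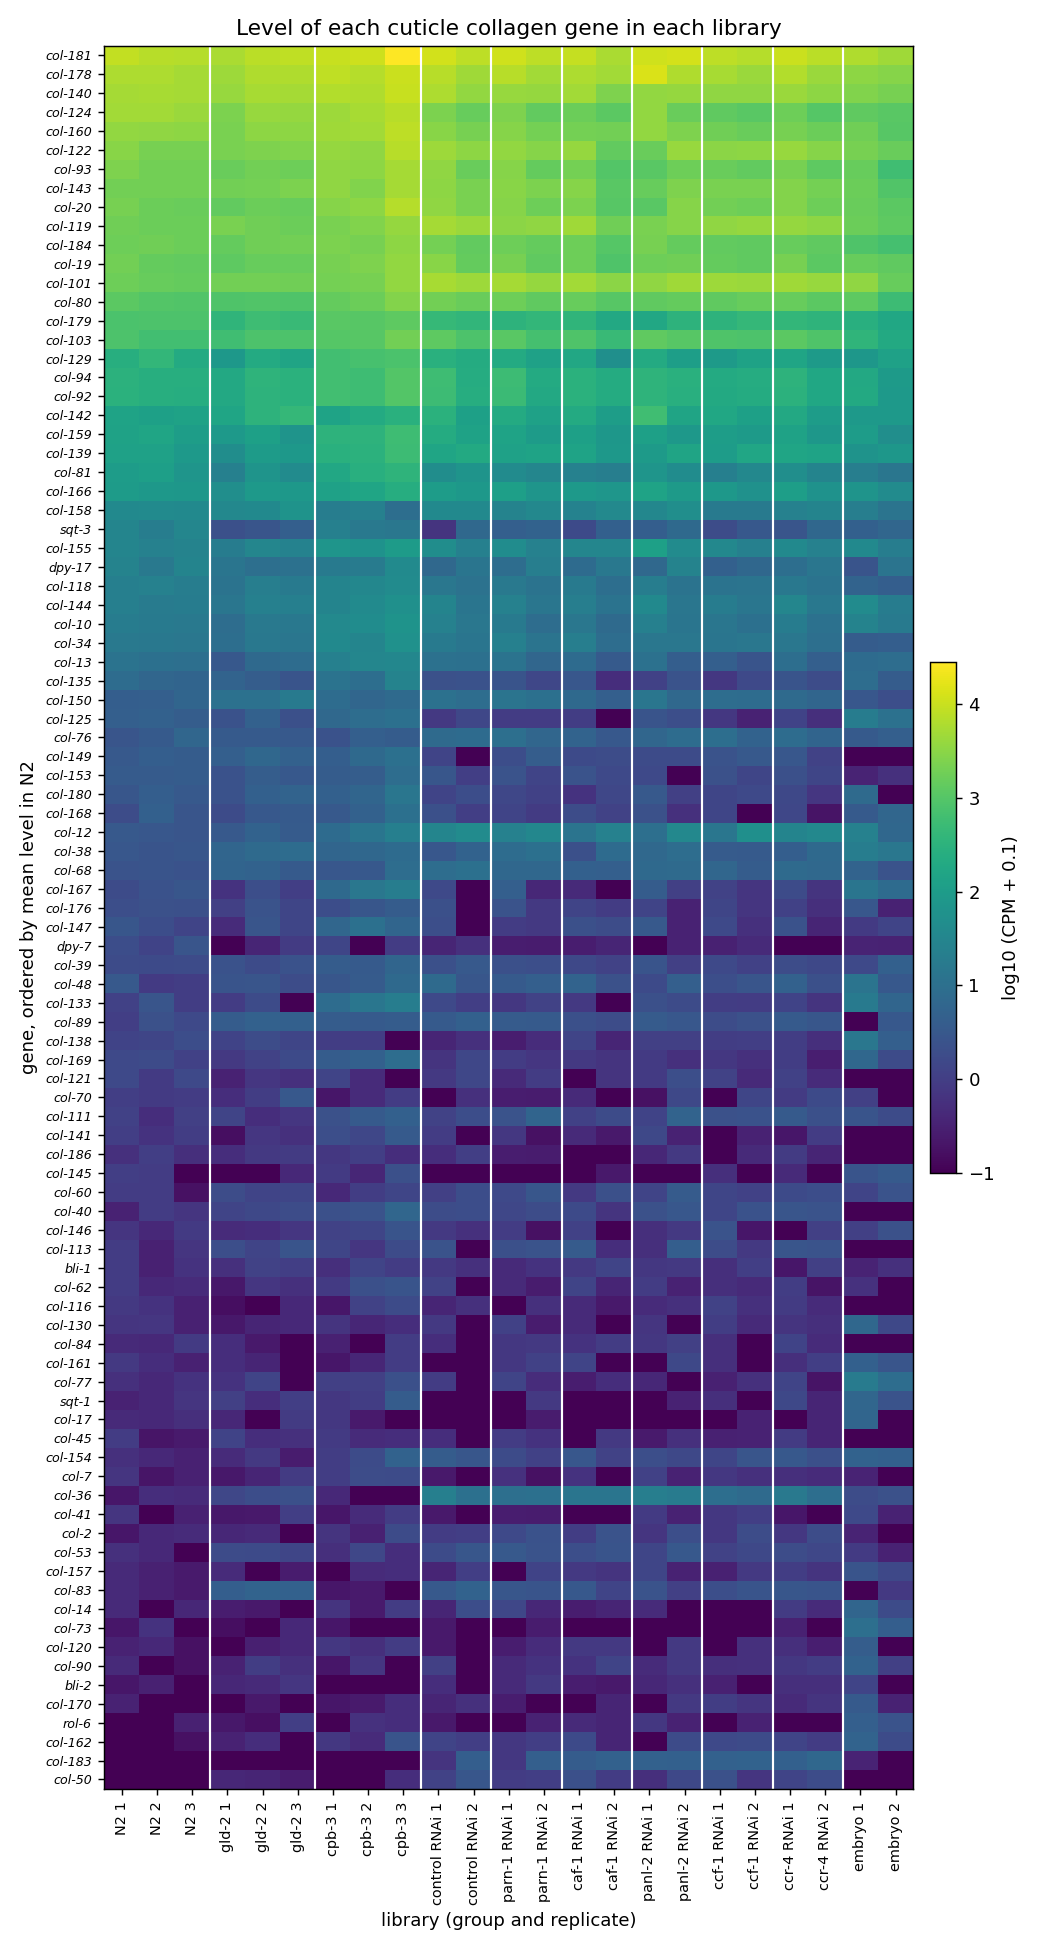
Each row is 1 of the 92 collagen genes, ordered by its mean level in N2, and each column is 1 library; colour is log10 of CPM plus 0.1. The uppermost rows stay high in all 23 libraries, embryos included, while col-36, col-83, col-183 and the group around rol-6 change colour between blocks of libraries.

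The genes lie on all 6 chromosomes, with 24 on V, 20 on IV, 19 on II, 16 on X, 7 on I and 6 on III (coordinates in ce10, as deposited). In all 35 genes lie within 10000 bases of another, in 14 groups. Neighbours were often unequal in level. On X, col-178 (11199411 to 11200311) averaged 5772 CPM in N2 while col-179 (11201474 to 11202377) had 793, 836 and 843. On V the near-identical tandem pair col-12 (10423985 to 10424987) and col-13 (10420867 to 10421869) had 2.58 to 3.25 and 9.73 to 11.8 CPM.

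On III, col-92 (10982101 to 10983127) and col-94 (10986768 to 10987731), which flank the more abundant col-93, had close counts in every library, 2572 and 2687 in N2 replicate 1 for example. The ratio of their counts ran from 0.951 to 1.06 over the 23 libraries and the chi-square per degree of freedom was 0.989, against 3.69 for the next closest pair of collagens. This pair was picked out after its values were seen. The counts of the 2 rows differ by no more than sampling noise, so they may not be separate results. Both rows are still counted, each as 1 gene, in the numbers of calls below. How reads that match both were counted is not known.

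In N2, 39 collagens had at least 20 tailed reads in every library. Their median tail was 32.7 nucleotides (nt), against 37.05 nt over the 7358 rows measured as well, and 33 of the 39 lay under that median of all rows. The shortest tail was that of col-34, at 18.1, 18.4 and 18.4 nt, and 0.367% of all rows had a shorter one. It was followed by col-135 at 21.9 ± 3.36 nt (SD, n = 3), col-129 at 24.4 ± 0.892, col-139 at 26.8 ± 2.40 and col-125 at 27.8 ± 1.00.

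At the other end stood col-76 at 62.9, 45.7 and 46.6 nt, resting on only 21 to 68 tailed reads, and sqt-3 at 46.8, 50.2 and 53.3 nt. Next were col-158 at 44.4 ± 1.49 nt, col-124 at 41.3 ± 1.36 and col-142 at 40.9 ± 2.72. Among the genes over 1000 CPM tails ran from col-140, with 28.9 ± 1.01 nt, to col-124, at a similar level, with 41.3. These did not overlap in N2. Both ends of the whole range were held by less abundant genes. Across the 39 genes Spearman's rho between tail length and CPM was -0.0134, given as a description over genes of the same libraries.

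The share of collagen reads that carried a tail was 60.8 to 70.8% in N2, where it was 78.2 to 85.2% for all reads outside ribosomal RNA, and 38.1 to 55.4% against 56.3 to 72.3% in cpb-3. Replicate 1 of the panl-2 RNAi group went the other way, at 87.6 against 84.2%, as did caf-1 RNAi replicate 2, at 72.9 against 71.3%.

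**Figure D2:**
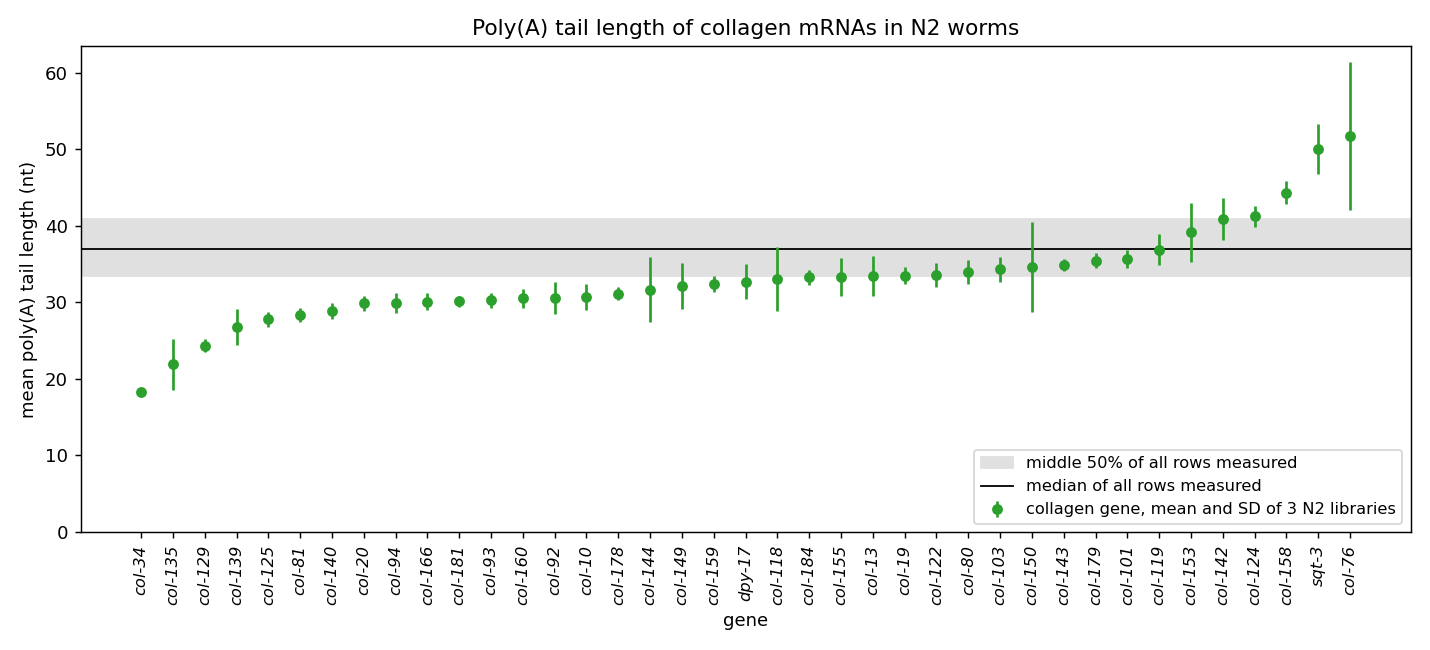
Mean poly(A) tail length in nt of the 39 collagens with enough tailed reads, with the SD of 3 N2 libraries; the line and band are the median and middle 50% of 7358 gene rows. Most collagens lie under the line, col-34 is lowest at 18.3 nt, and sqt-3 and col-76 stand above the band.

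Loss of CPB-3 went with more collagen mRNA. Of the 64 collagens that passed the filter on low counts in run 1, 31 rose and 1 fell in cpb-3 against N2, where 8.78% of all 10357 tested rows were called, 7.09% higher and 1.69% lower (edgeR quasi-likelihood test, adjusted p under 0.05). The median change of the 64 was 1.00 on the log2 scale and that of all tested rows -0.02. Of 52 collagens with a mean of 10 or more counts in both groups, 29 rose and 1 fell. In whole-worm libraries more cells of a type and more RNA per cell cannot be told apart.

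The smallest adjusted p was that of col-155, which had 30.0, 24.5 and 27.3 CPM in N2 and 67.7, 61.2 and 99.2 in cpb-3. All cpb-3 libraries lay above all N2 libraries, with a log2 change of 1.501 ± 0.23 (SE, edgeR adjusted p = 0.00084). The gene col-133 had 1.04, 2.62 and 0.885 CPM in N2 and 8.28, 13.5 and 19.9 in cpb-3, a log2 change of 3.19 ± 0.54 (edgeR adjusted p = 0.0018). Its groups did not overlap either, and this was the largest rise among the collagens that were called.

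The tandem genes col-12 and col-13 rose by 2.27 ± 0.37 and 1.51 ± 0.29. On X, col-167 had 1.62, 2.30 and 2.73 CPM in N2 and 7.08, 14.7 and 19.9 in cpb-3, a log2 change of 2.58 ± 0.43, and its neighbour col-169 rose by 1.94 ± 0.43. More abundant genes rose as well: col-139 by 1.78 ± 0.29, col-159 by 1.64 ± 0.27, col-129 by 1.33 ± 0.30 and the rows col-92 and col-94 by 1.47 ± 0.24 and 1.43 ± 0.25.

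Among the genes over 1000 CPM, 8 of the 14 rose. All 8 calls are lost without N2 replicate 3. All but that of col-20 are also lost without N2 replicate 2, and when cpb-3 and N2 are fitted alone. The adult-specific col-19 had 1914, 1425 and 1399 CPM in N2 and 2167, 2487 and 3752 in cpb-3, a log2 change of 0.87 ± 0.23 (edgeR adjusted p = 0.028). The most abundant gene, col-181, had 8919, 7221 and 7120 against 9633, 11002 and 28094 CPM, and did not pass the test (1.12 ± 0.34, adjusted p = 0.057). Its highest value, like that of col-20 and col-122, was in cpb-3 replicate 3. For col-178 and col-140 the changes were 0.60 ± 0.22 and 0.56 ± 0.21, with adjusted p of 0.10 and 0.12.

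The 1 collagen that fell was col-158, with 38.9, 40.9 and 37.9 CPM in N2 and 20.2, 24.1 and 9.13 in cpb-3, a log2 change of -1.05 ± 0.27 (edgeR adjusted p = 0.024). Its groups did not overlap, and its call is lost without any 1 of the N2 libraries. The collagens named for body shape were not among those called: sqt-3 had 23.5, 16.0 and 14.1 CPM in cpb-3 (-0.57 ± 0.26, adjusted p = 0.20) and dpy-17 had 17.8, 18.5 and 41.1 (0.08 ± 0.32, adjusted p = 0.90).

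The count depends on single N2 libraries. It is 12 without N2 replicate 3 and 19 without N2 replicate 2, all of them higher, and 28 to 40 without N2 replicate 1, cpb-3 replicate 1 or cpb-3 replicate 2; without cpb-3 replicate 3 it is 27. The median change stays between 0.66 and 1.23 in these fits, for which the share of all rows called is not given here. The calls of col-155, col-12, col-13, col-133, col-139, col-159, col-167, col-34, col-10, col-38, col-92 and col-94 hold in every one of the 11 alternative fits run.

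Few other cuticle genes were called in cpb-3. Of 7 other cuticle collagens tested 1 was called, ram-2, a col-type gene known from the rays of the male tail, which rose by 1.62 ± 0.29 (edgeR adjusted p = 0.0026). In all 5 of the 7 had an unadjusted p under 0.05, among them dpy-9 (1.22 ± 0.53), bli-6 (1.04 ± 0.45), dpy-14 (-0.76 ± 0.29) and dpy-2 (-1.29 ± 0.60), whose groups overlap. By edgeR, none of 15 genes for collagen processing and cross-linking was called (1 at an unadjusted p under 0.05, 0 by DESeq2), none of 13 cuticlins and other apical matrix genes (2 and 0), none of 9 moulting genes (2 and 1) and none of 9 epidermal and timing regulators (0 and 0). Of 3 basement membrane and other collagens 1 rose, cle-1 (0.68 ± 0.20), with overlapping groups. No test compared these lists with the cuticle collagens. The summed level of 6 epidermis markers was 155.03 to 184.6 CPM in N2 and 124.2 to 265.1 in cpb-3, with 0 of 5 tested markers called by edgeR, 1 at an unadjusted p under 0.05 and 1 called by DESeq2. Sperm genes moved too, from a summed 22.7 to 33.4 CPM in N2 to 231 to 366 in cpb-3, with 7 of 8 tested called higher. Body muscle markers summed to 4060 to 4680 CPM in N2 and 4847 to 5836 in cpb-3, with 1 of 10 called higher. Intestine markers had 1 of 10 called lower and oocyte and maternal markers 1 of 12 called higher; of 7 neuron markers 0 were called by edgeR, 1 at an unadjusted p under 0.05 and 0 by DESeq2. The part of any of these in the collagen result was not tested.

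**Figure D3:**
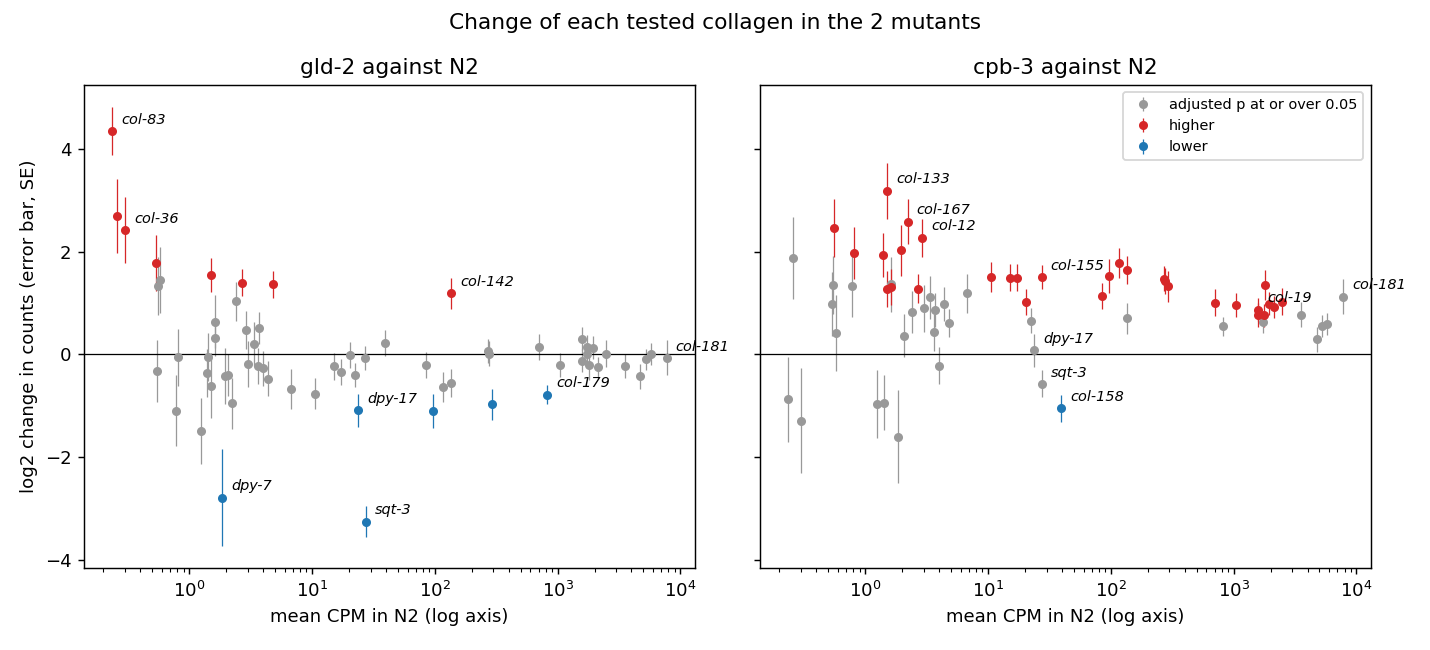
Log2 change in counts, with its SE, of each of the 64 tested collagens against its mean CPM in N2 (log axis), for gld-2 on the left and cpb-3 on the right; red and blue points passed the test. In cpb-3 the points lie mostly above 0 over the whole range of levels, while in gld-2 the abundant genes lie near 0 and sqt-3, dpy-7 and col-83 stand far from it.

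In gld-2 fewer collagens moved, and those that did were of low or middle level. Against N2, 8 of the 64 rose and 6 fell, where 13.5% of all tested rows rose and 14.9% fell. The median change was -0.11 on the log2 scale. Of 53 collagens with a mean of 10 or more counts in both groups 4 rose and 5 fell. None of the 14 genes over 1000 CPM in N2 was called.

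The largest fall was that of sqt-3 (V, 12353002 to 12354061), whose mutants are squat. It had 29.6, 20.6 and 32.1 CPM in N2 and 2.08, 2.67 and 4.25 in gld-2, without overlap, a log2 change of -3.25 ± 0.30 (edgeR adjusted p = 6.0e-07). Its partner in processing, dpy-17, had 26.8, 15.6 and 28.9 against 12.7, 9.64 and 10.7 CPM (-1.08 ± 0.32, adjusted p = 0.018). The furrow collagen dpy-7 had 16, 11 and 35 counts in N2 and 0, 4 and 5 in gld-2 (-2.79 ± 0.95, adjusted p = 0.038).

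The dpy-7 call rests on few counts and is lost in 6 of 11 alternative fits, DESeq2 among them, and without N2 replicate 1, N2 replicate 3, gld-2 replicate 1 or gld-2 replicate 2. The dpy-17 call is lost without N2 replicate 1, N2 replicate 3 or gld-2 replicate 2. The sqt-3 call held in all 11.

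The other collagens that fell were col-179 (-0.78 ± 0.19), col-129 (-0.97 ± 0.30) and col-81 (-1.10 ± 0.33). The more distal of the pair on X, col-179 had 793, 836 and 843 CPM in N2 and 359, 571 and 489 in gld-2, while its neighbour col-178 had 5306 to 6090 and 4511 to 6336. The calls of col-129 and col-81 are lost without gld-2 replicate 1 or 3, or without N2 replicate 2, and that of col-81 also without N2 replicate 1.

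Of the genes that rose, col-83 (II, 11044077 to 11045910) changed most. It had 3, 2 and 2 counts in N2, 1, 2 and 0 in cpb-3, and 68, 79 and 30 in gld-2, or 4.05, 5.40 and 4.73 CPM. The log2 change against N2 was 4.35 ± 0.47 (edgeR adjusted p = 3.3e-06), with no overlap. Next by adjusted p were col-38 (1.40 ± 0.27), col-150 (1.36 ± 0.26), col-89 (1.55 ± 0.33) and col-142, the most abundant of those that rose, with 127 to 146 CPM in N2 and 163, 333 and 425 in gld-2 (1.19 ± 0.30).

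The remaining genes rose from very low levels: col-36 from 1, 4 and 5 counts to 22, 27 and 13, col-53 from 4, 3 and 0 to 28, 23 and 8, and col-113 by 1.78 ± 0.55. The gene col-50 had no count in N2 and 10 counts in gld-2, and was below the filter. With the N2 group set at 3 counts it was 2.80-fold higher, without the counting error of the 10. The calls of col-83, col-38, col-150, col-89, col-142 and col-36 held in all 11 alternative fits, that of col-53 was lost without N2 replicate 3, and that of col-113 without N2 replicate 2 or 3 or gld-2 replicate 1 or 3.

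The 12 RNAi libraries are gld-2 worms as well, sequenced in another run. There sqt-3 ranged from 0.549 to 7.20 CPM, dpy-7 from 0 to 0.456 and col-83 from 0.960 to 5.02. These ranges lie below all N2 libraries for sqt-3 and dpy-7 and above them for col-83. The range of dpy-17, 4.57 to 27.6 CPM, overlaps N2. No test was made across runs, since run and RNAi feeding cannot be told apart from genotype there.

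Other cuticle genes changed in both directions in gld-2. Of 7 other cuticle collagens tested, the body-shape gene dpy-14 fell by 3.41 on the log2 scale (SE 0.33, edgeR adjusted p = 1.0e-06), from 33.5, 21.5 and 42.0 CPM to 3.34, 2.19 and 3.62. The furrow collagens dpy-2 and dpy-3 also fell, with changes of -1.89 ± 0.59 (groups that overlap) and -3.91 ± 0.90, and dpy-9 rose by 1.84 ± 0.48. Of 9 epidermal and timing regulators tested 5 fell and none rose: the nuclear receptors nhr-25 (-2.61 ± 0.43) and nhr-23 (-0.78 ± 0.21), the GATA factor elt-1 (-1.97 ± 0.44), the epidermal zinc finger factor lin-26 (-1.73 ± 0.31) and the timing gene lin-41 (-1.62 ± 0.27).

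Of 15 processing genes, the disulphide isomerase pdi-2, a subunit of prolyl 4-hydroxylase, fell (-1.02 ± 0.25) and pdi-1 rose (0.78 ± 0.18). Of 13 cuticlins and other apical matrix genes 3 rose and 5 fell, among them cutl-23 (4.91 ± 0.52), sym-1 (-2.19 ± 0.26), fbn-1 (-2.63 ± 0.44) and cutl-26 (2.36 ± 0.45). Of 9 moulting genes pan-1 (0.77 ± 0.18) and nekl-2 (0.91 ± 0.28) rose and acn-1 (-1.53 ± 0.43) fell. Of 3 basement membrane and other collagens 0 were called by edgeR, 0 had an unadjusted p under 0.05 and 0 were called by DESeq2. The summed level of the epidermis markers was 155.03 to 184.6 CPM in N2 and 61.1 to 77.2 in gld-2, with 3 of 5 tested called lower, wrt-10 and the lin-26 and nhr-25 already named. Most of that sum is lin-26, at a mean of 135.4 CPM in N2 and 40.6 in gld-2, while the markers that were not called had higher means in gld-2, fasn-1 at 20.8 and 26.03 CPM and che-14 at 0.687 and 1.48. None of the 6 epidermis markers was at 0 counts in any of the 3 adult groups. Oocyte and maternal markers went from 4640 to 4872 CPM to 2123 to 2714, with 10 of 12 called lower, and sperm markers from 22.7 to 33.4 CPM to 974 to 1012, with 8 of 8 called higher. Of 10 intestine markers 1 was higher and 1 lower, and 1 of 7 neuron markers was lower. Of 10 body muscle markers 0 were called by edgeR, 0 had an unadjusted p under 0.05 and 0 were called by DESeq2. Their part in the collagen changes was not tested.

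**Figure D4:**
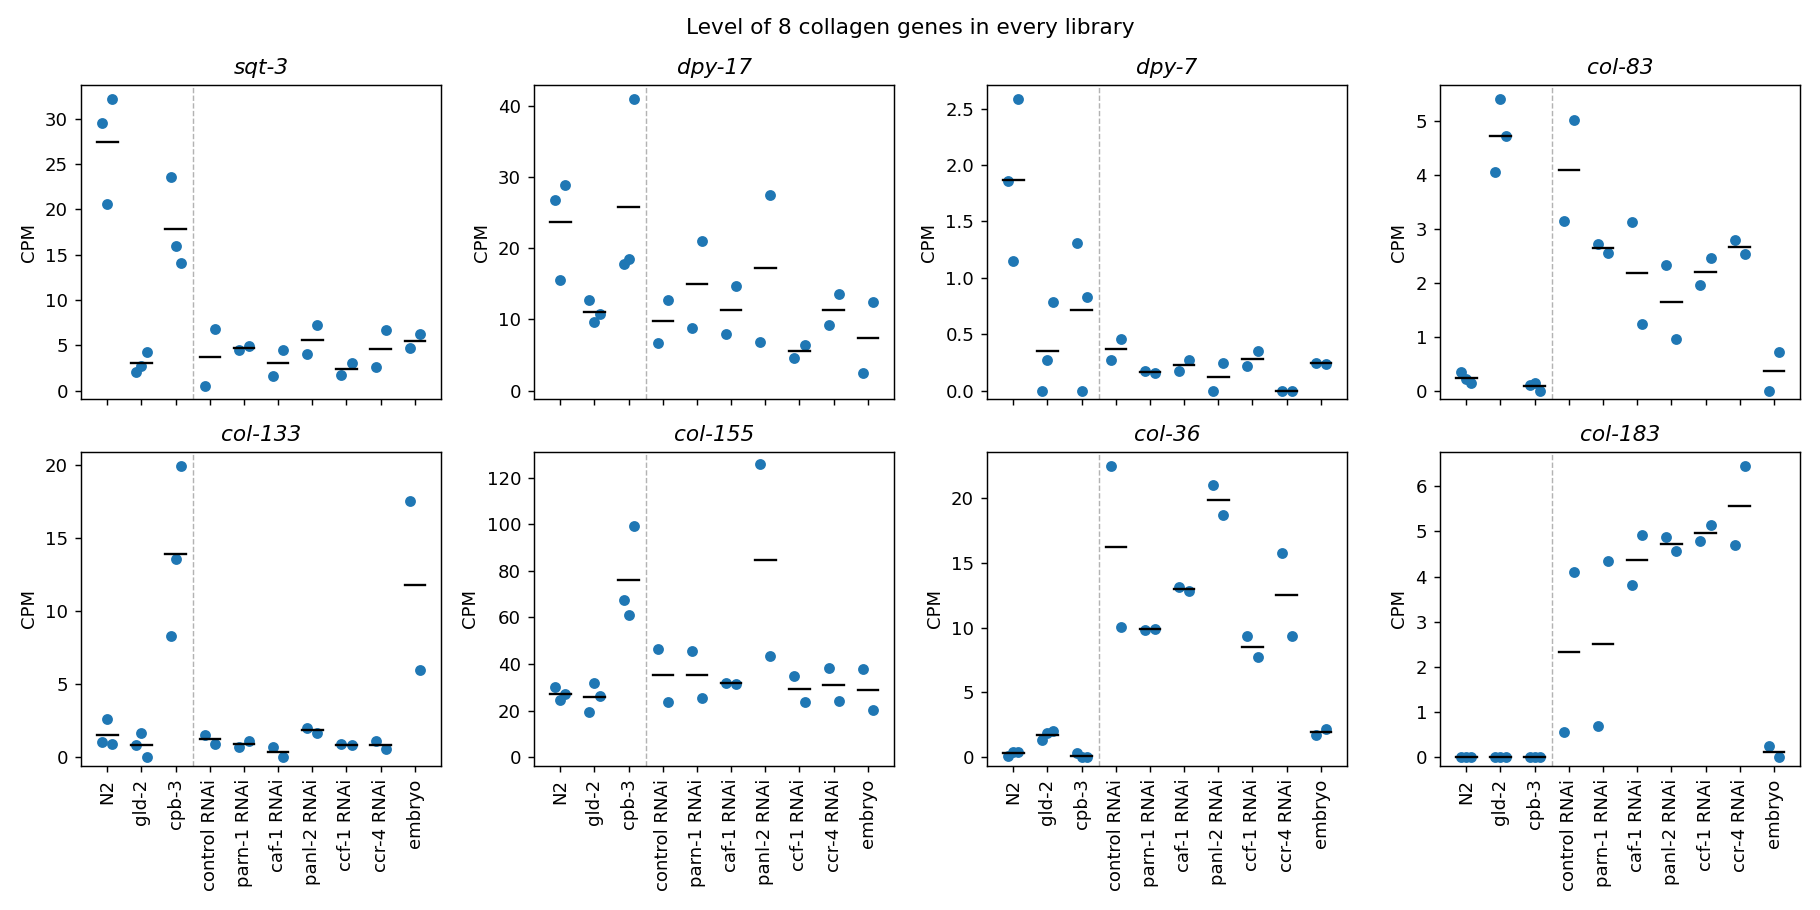
CPM of 8 collagens in every library, by group; points are libraries, bars are group means and the dashed line parts run 1 from run 2. The genes sqt-3 and dpy-7 are low and col-83 is high in gld-2 and in most RNAi libraries, col-133 is high in cpb-3 and embryos, and col-183 has no counts in run 1.

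Set against each other, the 2 mutants gave 45 calls. Of the 64 collagens, 41 were lower and 4 higher in gld-2 than in cpb-3, where 19.4% of all tested rows were lower and 17.0% higher. The median change was -1.05. The lower genes were led by sqt-3 (-2.68 ± 0.30, edgeR adjusted p = 7.8e-06), col-139 (-2.41 ± 0.30), col-159 (-2.20 ± 0.28), col-81 (-2.63 ± 0.34), col-167 (-3.54 ± 0.47), col-13 (-2.27 ± 0.31), col-129 (-2.30 ± 0.31) and col-179 (-1.33 ± 0.19). The higher ones were col-83, col-36, col-158 (1.27 ± 0.27) and col-150 (0.75 ± 0.26). For col-83 the 177 counts in gld-2 against 3 in cpb-3 give a ratio of 39.9, with an exact interval for counting error of 13.4 to 196, and for col-36 the 62 against 3 counts give 14.0, with 4.57 to 69.7.

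Collagen tails hardly moved in the mutants. In gld-2 against N2, 46 collagens could be tested, and 1 had a shorter tail and none a longer one, where 11.3% of 7958 rows shortened and 0.176% lengthened (limma, adjusted p under 0.05). The median change was -0.08 nt for the collagens and -2.22 nt for all tested rows. The 1 gene was sqt-3, with 46.8, 50.2 and 53.3 nt in N2 and 35.4, 32.4 and 42.3 nt in gld-2, where 33, 34 and 21 tailed reads were left. The groups did not overlap and the change was -13.4 ± 3.04 nt (limma adjusted p = 0.0099), so that mRNA was both rarer and shorter-tailed. The tail call is lost without N2 replicate 3 or gld-2 replicate 2. The abundant genes kept their lengths within the spread: col-181 had 29.6 to 30.9 nt in N2 and 28.8 to 33.01 in gld-2, and col-19 had 32.8 to 34.8 and 31.9 to 35.2. A small median was not particular to collagens. It was 0.50 nt for body muscle, 1.45 for intestine and -0.71 for neuron markers. Of 9, 9 and 6 tested, 0 were called, with 0, 1 and 0 at an unadjusted p under 0.05. Other cuticle collagens had -4.87 nt, with 0 of 3 called and 0 at an unadjusted p under 0.05.

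With each library centred on its own median tail, the gld-2 worms had 7 of 46 collagens longer and 1 shorter, where 9.78% of all rows were called, 2.46% longer and 7.31% shorter. In cpb-3 against N2, none of the 46 tails was called by limma, 0.0% of 7991 rows were, 6 collagens had an unadjusted p under 0.05, and the smallest adjusted p was 0.35; centred on library medians, 2 were shorter, where 0.738% of all rows were called and 0.538% were shorter. The 6 were col-76 and col-158, with longer mean tails in cpb-3, and col-80, col-92, col-94 and col-147, with shorter ones.

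Between the mutants 3 tails were shorter in gld-2 than in cpb-3, where 19.1% of 8039 rows were shorter and 0.398% longer. These were col-76, with 37.8, 36.3 and 51.9 nt in gld-2 against 72.1 and 74.7 in 2 cpb-3 libraries (the third had too few reads), sqt-3 (-12.7 ± 3.04 nt) and col-158 (-7.67 ± 2.55 nt). The col-158 groups overlap, at 38.8, 41.03 and 47.6 against 54.5, 50.1 and 45.9 nt, and its call is lost in 9 of 12 alternatives. Without cpb-3 replicate 1 the count is 6, of which 5 are longer, and without cpb-3 replicate 2 it is 1. With centring 21 were longer and 2 shorter, where 15.2% of all rows were called, 6.31% longer and 8.87% shorter.

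No collagen count was called in the RNAi comparisons. Of 62 collagens tested none was called in any of the 5 comparisons with the control, by edgeR or by DESeq2, where 0.0% of 9908 rows were called by edgeR in each. The number with an unadjusted p under 0.05 was 2 for parn-1, 5 for caf-1, 1 for panl-2, 7 for ccf-1 and 0 for ccr-4. The median log2 changes were -0.15, -0.44, 0.00, -0.41 and -0.25 in that order, and all 5 comparisons share the same 2 control libraries. In those libraries col-181 had 11688 and 8181 CPM, and col-19 had 2984 and 1451.

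Tails were called for 1 collagen each in 2 of these comparisons. In ccf-1 RNAi, against a subunit of the CCR4-NOT deadenylase complex, 19.6% of 6678 rows were called and 19.5% were longer, and the median of all rows was 5.31 nt, while 1 of 37 collagens was called longer and their median was 0.48 nt. The gene was col-81, with 26.6 and 24.5 nt in the control and 34.2 and 35.7 nt in ccf-1 RNAi (9.40 ± 2.66 nt, limma adjusted p = 0.025). The groups do not overlap, on 48 to 132 tailed reads, and the call is lost after centring or without control RNAi replicate 2, ccf-1 RNAi replicate 1 or ccf-1 RNAi replicate 2. The most abundant gene, col-181, had 28.4 and 29.2 nt in the control and 30.1 and 28.1 in ccf-1 RNAi, and col-19 had 31.7 and 31.3 against 32.1 and 32.3. Other lists had small medians too, 0.46 nt for body muscle and 0.92 for intestine markers. Of these 0 of 9 and 0 of 8 were called, with 0 and 0 at an unadjusted p under 0.05. Other cuticle collagens had 11.4 nt, with 0 of 3 called and 0 at an unadjusted p under 0.05.

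In the libraries labelled panl-2 RNAi 0.632% of 6641 rows lengthened and 1 of 36 collagens did. This was col-142, with 37.3 and 40.9 nt in the control and 56.3 and 53.9 in those libraries (16.0 ± 3.22 nt, limma adjusted p = 0.035). The call is lost without any 1 of the 4 libraries. In parn-1, caf-1 and ccr-4 RNAi no collagen tail was called by limma, as in 0.0% of all rows, with 2, 1 and 2 collagens at an unadjusted p under 0.05.

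A few collagens set the RNAi libraries apart from run 1. The gene col-183 (X, 13466669 to 13467668) had 0 counts in all 9 libraries of run 1, where 3 counts over the 9 would be the limit, and 394 counts spread over all 12 RNAi libraries, at 0.549 to 6.45 CPM. Both embryo libraries together, of the same run, had 1 count. Its neighbour col-184 had 1638 to 1813 CPM in N2 and 1036 to 2105 in the RNAi libraries. The gene col-36 had 7.71 to 22.5 CPM in the RNAi libraries and 1.31 to 2.05 in the gld-2 libraries of run 1, and col-12 had 9.67 to 51.0 against 3.22 to 4.99. The embryo libraries, sequenced in run 2 as well, had 1.73 and 2.14 CPM of col-36 and 24.7 and 6.43 of col-12. Between the RNAi libraries and the gld-2 libraries of run 1, sequencing run, RNAi feeding and bacterial food cannot be told apart.

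The embryo libraries held most of the abundant adult collagens, and a set of rare ones was higher there than in N2 adults. The 5 highest were col-181 with 6450 and 4668 CPM, col-178 with 3361 and 2910, col-101 with 3522 and 1548, col-140 with 2604 and 2195, and col-122 with 2179 and 1567. The adult-specific col-19 had 1539 and 1336 CPM, inside or just below its N2 range of 1399 to 1914. These sit beside the muscle mRNA described above, with 10 body muscle markers summing to 2135 to 2289 CPM against 4060 to 4680 in N2 and 7 of the 10 called lower, so the libraries labelled as early embryos also held mRNAs of differentiated tissues. Where these came from was not tested.

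Against N2 adults 19 of 70 tested collagens were higher and 24 lower, where 16.1% of 9343 rows were higher and 18.3% lower. With a mean of 10 or more counts in both groups, 7 were higher and 20 lower. Embryos and N2 adults also differ in sequencing run, and stage and run cannot be told apart.

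The higher genes were rare in N2 adults. Some were not rarer in the RNAi adults than in embryos. For col-36 the embryo libraries had 1.73 and 2.14 CPM and the RNAi libraries 7.71 to 22.5. For col-12 the values were 24.7 and 6.43 against 9.67 to 51.0 CPM. The roller collagens rol-6 and sqt-1 were among the higher genes. Like col-73, col-77, col-154 and col-162, these roller genes did not pass the filter on low counts in run 1. They passed it here through their embryo counts, so low adult levels and higher embryo levels were partly set by the filter. Embryos held 57 of the 72 counts of col-73. For rol-6 the counts were 18 and 10 in embryos and 0, 0 and 3 in N2, a ratio of 35.9 with an exact 95% interval for counting error of 11.1 to 185. For sqt-1 the embryo libraries had 6.17 and 2.38 CPM and N2 had 0.232 to 0.590, a log2 change of 3.38 ± 0.73 (edgeR adjusted p = 0.0079).

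The gene col-77 had 18.3 and 8.58 CPM in embryos against 0.314 to 0.516 in N2 (4.89 ± 0.53, adjusted p = 0.00034), and col-73 had 40 and 17 counts against 1, 5 and 0. Neither overlapped, and col-73 had 5 counts over the 12 RNAi libraries. Also higher were col-38 (2.67 ± 0.32), with 20.5 and 14.3 CPM against 2.51 to 2.90, col-154 (3.85 ± 0.65) and col-125 (1.79 ± 0.35). For col-162 the 29 counts in embryos against 1 in N2 give a ratio of 112, with an interval of 18.5 to 4559. The genes col-133 and col-167, which rose in cpb-3, were higher in embryos as well, at 17.5 and 5.96 and at 12.8 and 8.10 CPM; both comparisons share the N2 libraries.

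Of the other cuticle collagens, sqt-2 was higher by 4.04 ± 0.61 and rol-8 by 1.67 ± 0.55, while dpy-14 (-1.82 ± 0.48) and dpy-2, with no count, were lower. Of 15 genes tested from the processing and cross-linking list 2 were higher, dpy-5 (4.86 ± 0.65) and pdi-1. The body-shape gene dpy-5 encodes a cuticle collagen, although it stood on that list. Among the 7 that were lower were the protease gene dpy-31 (-2.15 ± 0.51) and the peroxidase gene mlt-7 (-2.48 ± 0.39). Of 10 cuticlins and other apical matrix genes 1 was higher and 3 lower, of 9 moulting genes 2 were lower, and of 10 epidermal and timing regulators 2 were higher, nhr-23 (1.56 ± 0.20) and lin-41 (1.04 ± 0.31), and 2 lower. Of 3 basement membrane and other collagens emb-9 (-1.58 ± 0.22) and cle-1 (-1.81 ± 0.30) were lower. All 4 tested epidermis markers were lower, as were 5 of 8 neuron markers; intestine markers had 3 higher and 3 lower of 10, oocyte and maternal markers 5 higher and 3 lower of 12, and sperm markers 1 higher of 5. Their part in the collagen differences was not tested.

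The lower genes included abundant adult collagens. The smallest adjusted p was that of col-124, with 1324 and 1139 CPM against 4278 to 5036 in N2 (-1.94 ± 0.18, edgeR adjusted p = 0.00016), followed by col-179 (-1.90 ± 0.20), col-81 (-2.46 ± 0.29), col-118 (-2.23 ± 0.29), col-140 (-1.14 ± 0.16), col-184 (-1.12 ± 0.17) and col-34 (-1.96 ± 0.30). The genes sqt-3 (-2.33 ± 0.31) and dpy-17 (-1.67 ± 0.52) were lower too. For dpy-7 the 62 counts in N2 against 2 in embryos give a ratio of 8.05, with 2.14 to 68.0 for counting error. Without any count in embryos were col-149 and col-121. With the 2 embryo libraries set at 3 counts they were 10.2-fold and 3.46-fold lower, without the counting error of the N2 counts.

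Calls lost without any 1 of the N2 libraries include those of dpy-17, col-92, col-93, col-94 and col-36, the last also without embryo replicate 2. That of col-139 is lost without N2 replicate 1 or 2, and that of dpy-7 without N2 replicate 2. Those of rol-6, col-73, col-77, col-162, col-133, col-167, col-149, col-124, col-179, col-81, col-118 and sqt-3 held in every alternative fit that gave a value.

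Of 34 collagen tails tested in embryos 4 were shorter and none longer, where 2.89% of 6442 rows were shorter and 2.69% longer. The 2 rows on III with like counts, col-92 and col-94, had 20.7 and 20.0 nt and 20.7 and 21.03 nt in embryos against 28.2 to 32.0 and 28.6 to 31.2 nt in N2. The changes were -10.2 ± 1.52 and -9.07 ± 1.31 nt (limma adjusted p = 0.021 and 0.020). The others were col-119 (-6.31 ± 1.23 nt) and col-80 (-5.61 ± 1.14 nt). All 4 calls are lost without N2 replicate 1, 2 or 3, while without embryo replicate 1 the count is 16 and without embryo replicate 2 it is 11. The share of all rows called in these fits is not given here.

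**Figure D5:**
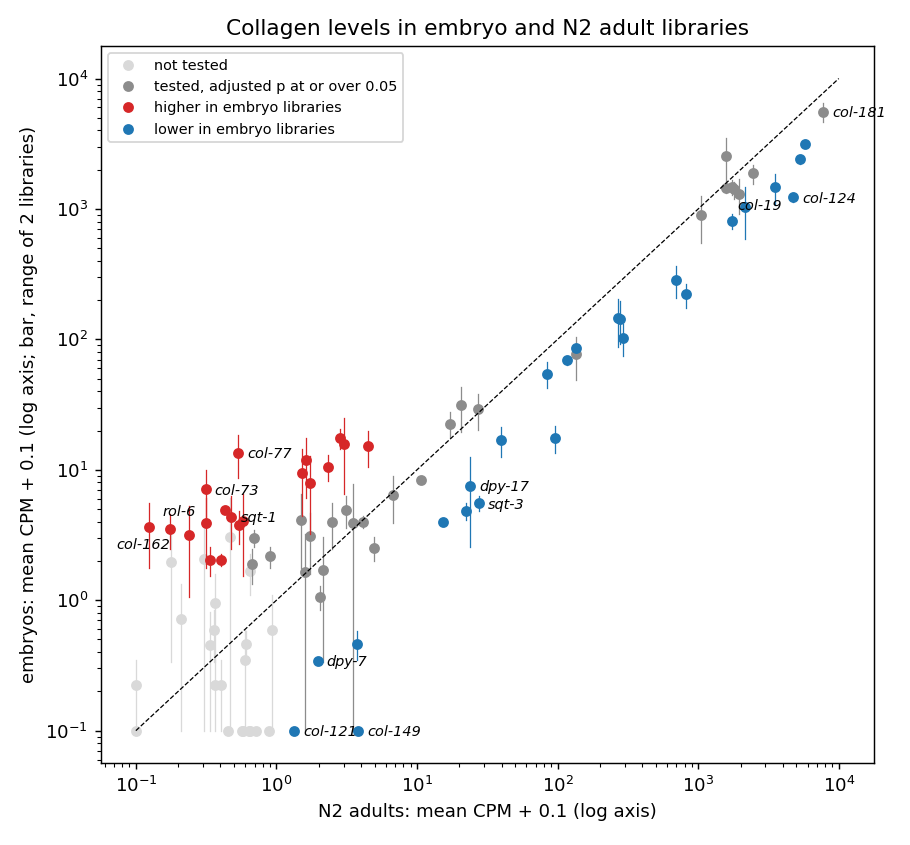
Mean CPM plus 0.1 of each collagen in the 2 embryo libraries, with their range, against its mean in the 3 N2 libraries (both axes log). Abundant genes such as col-181 and col-19 lie on or somewhat below the dashed line of equality, while rol-6, sqt-1, col-73, col-77 and col-162 lie far above it at low levels.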

How the data were processed

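PAT-seq libraries were made from whole worms or embryos; per the labels' protocols RNA was cut with RNase T1 and fragments of 120 to 300 bases were selected. Per the submitters' processing notes, Bowtie, Bowtie2 2.2.4 and the ce10 build were used; the tool that counted reads was not given in the sources used here. Deposited tables of the authors hold, per gene row and library, the count of reads, the count of reads with a poly(A) tail, and the mean tail length in nt. All sample columns were mapped to a library by name.

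The members and gene lists were chosen with earlier results of these data known. Counts were tested with edgeR 4.0.16 (R 4.3.3; TMM, filterByExpr, robust quasi-likelihood test, Benjamini-Hochberg adjustment over all tested rows) in 3 fits: the 9 libraries of run 1, the 12 RNAi libraries, and the embryo with the N2 libraries. CPM used TMM-scaled sizes over all 23 libraries, so folds between CPM values can differ from fitted changes. Tail lengths were tested with limma 3.58.1, with the spread trend on log2 mean tailed reads; values under 5 tailed reads were missing, and a row needed a mean of 20. The scripts were tested on simulated data. Alternatives were RLE size factors, DESeq2 1.42.0, no filter, other minimum reads, centring on library medians, a replicate block, fits of 2 groups alone and leaving out each library; a spread trend on mean tail length and RNAi fits without panl-2 RNAi replicate 1 were added after seeing the data. Ratios from 1 to 3 counts have exact 95% intervals, which cover counting error only. A count of 0 is set at 3 counts over the group, which covers the counting error of that group only.

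Named were the genes known from mutants, the adult collagens col-7, col-19 and col-62, the 10 highest in N2 and 5 highest in embryos, the 5 longest and 5 shortest tails, and up to 8 called genes per direction and comparison by adjusted p with groups that do not overlap; for other lists, up to 4 genes. Near-identical protein pairs could not be looked up. Other genes named, such as neighbours and those that set the RNAi libraries apart, were chosen after their values were seen.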

Additional observations from a re-analysis of the deposited data

How the results depend on the processing

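No named gene reversed: over 144 results and 1480 alternative values, 1260 kept the call and 220 lost it. Counts of called collagens stayed within 1.5 times for gld-2 against N2 (10 to 15 without 1 library), gld-2 against cpb-3 (38 to 51) and embryos against N2 (29 to 51), but ran from 12 to 40 for cpb-3 against N2. Fitting cpb-3 and N2 alone gave 22, DESeq2 39 and no filter 44; without a filter panl-2 RNAi had 1 called count. Centring tails on library medians gave 8 calls for gld-2 against N2, 2 for cpb-3 against N2, 23 for gld-2 against cpb-3, 0 for panl-2 RNAi, 0 for ccf-1 RNAi and 7 for embryos. The share of all rows called with centring was 9.78, 0.738, 15.2, 0.392, 0.195 and 7.5% in that order. Leaving out 1 library gave 0 to 1 tail calls for gld-2 against N2, 1 to 6 for gld-2 against cpb-3, 0 for panl-2 RNAi in each case, 0 to 1 for ccf-1 RNAi and 0 to 16 for embryos. With no minimum beyond 1 tailed read panl-2 RNAi had 0 tail calls and embryos 2, with 10 reads and a mean of 50 panl-2 RNAi had 2, and with the trend on mean tail length both had 0. For alternatives other than centring, and for an unadjusted p, the share of all rows is not given here. A shift of the collagens cannot be told apart there from a shift of all rows. The cause of these shifts was not tested.

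Nothing in the labels pairs libraries of like number. Correlations of same-numbered deviations ran from -0.27 to 0.25 in run 1 and were -0.01 and -0.05 for embryos. In the 5 RNAi comparisons they ran from 0.119 to 0.204. With 2 libraries per group both pairs of a comparison give the same value, and all 5 share the control libraries. These values cannot decide on a pairing there, and for want of a label the pairing was not used. With the replicate block, count calls were 14 for gld-2 against N2, 29 for cpb-3 against N2, 44 for gld-2 against cpb-3 and 32 for embryos; tail calls were 2 for panl-2 RNAi and 0 for embryos. Genes under about 10 counts per library, such as dpy-7, rol-6 and bli-2, are limited by depth.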

Other observations

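The 26 collagens in merged rows were in no comparison. The pair col-3 and col-117 shares 2 rows with 2119 and 3578 counts over all libraries, and col-126 and col-127 share 2 with 17 and 59. The body-shape collagen dpy-13 lies with col-33 in a row that merges 297 genes and holds 996798 counts, so its own level cannot be read from it.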
